A study of Saccharomyces cerevisiae with 2 samples.

Results

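The 10 genes described here belong to the general stress response of budding yeast, Saccharomyces cerevisiae. They were chosen by name from a fixed list and found by the gene name that the array gives each probe, as 10 of 5688 gene names and 92 of 41775 probes. MSN2, MSN4 and HSF1 encode transcription factors, HSP12, HSP26, HSP42 and HSP104 encode heat shock proteins, and CTT1, HOR7 and DDR2 are further stress-induced genes. The measurement was of histone H3 along the genome in strain MDY510, whose H3 carries the Myc epitope tag. Every culture was arrested by the mating pheromone alpha factor, which stops the cycle in G1, and galactose was not given. DNA recovered with a monoclonal antibody to the tag from sonicated chromatin (IP) was set against DNA of the whole cell extract (WCE). There was 1 group of 2 arrays, replicates 1 and 2, with no untagged strain, stressed culture or dye swap among them, and the labels leave unsaid whether the strain also makes untagged H3. Each ratio is an average over the cells of a culture. The question was how much H3 each region carries in this state.

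Msn2 and Msn4 are zinc finger activators that bind stress response elements in promoters. In unstressed cells protein kinase A keeps them out of the nucleus, and heat, osmotic, oxidative and nutrient stress release them. Hsf1 is an essential activator that binds heat shock elements and maintains chaperone genes in growing cells as well as under heat. Promoters of such genes are known in yeast for nucleosomes that are lost on induction and put back afterwards.

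Every value is a log2 ratio, Cy5 signal divided by Cy3 signal, from which the array's median was subtracted, so that 0 is the typical probe. The labels put the Myc-H3 IP in Cy5 and WCE in Cy3. Mitochondrial DNA, which carries no histones, went against these labels: its probes lay 4.84 ± 0.10 (SD, n = 2 arrays) above nuclear probes, brighter in the channel labelled IP. "Higher" below therefore means only brighter in the channel labelled IP, and all signs would be opposite had the channels been swapped. The arrays agreed across nuclear probes with r = 0.988 (across probes, which are not independent), and all 92 probes were kept and were well above background in both channels. Saturation, which compresses a ratio, touched 13 of the 92 probes in some channel and array. The number of arrays, 2, limits the precision. Nothing in the labels tells whether replicates 1 and 2 came from separate cultures, so a p-value reflects only the spread of this pair of arrays, possibly a technical one. An exact test on 2 arrays cannot go below p = 0.5. The calls below come from limma fitted across all genes or probes and adjusted by Benjamini-Hochberg over all of them, at 0.05. Errors are SD over the 2 arrays.

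The promoters of the stress genes ranged from the array's typical ratio to among its highest. MSN4 stood at the top, followed by HOR7, DDR2 and HSP12, while HSP42, HSP104 and CTT1 lay lowest. All 10 promoters were higher than the array median (limma, adjusted p from 0.000251 for CTT1 downwards), against 70.8% of 5173 promoters on the array, and 0 were lower, against 16.3%. Centring on the mode ended the calls of HSP42, HSP104 and CTT1, and the median of probes that of HSP42 (0.06). Their median ratio was 0.43, and that of all promoters 0.23. Coding regions split: of 8 genes with at least 2 coding probes, HSP12, HSP26 and CTT1 were higher, against 34.9% of 4996 coding regions, and MSN2, MSN4, HSF1, HSP42 and HSP104 were lower, against 49.1%. The members' median was -0.13 and that of all coding regions -0.04. HOR7 and DDR2 are so short that they hold 1 coding probe each, and they are given by that probe.

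**Figure D1:**
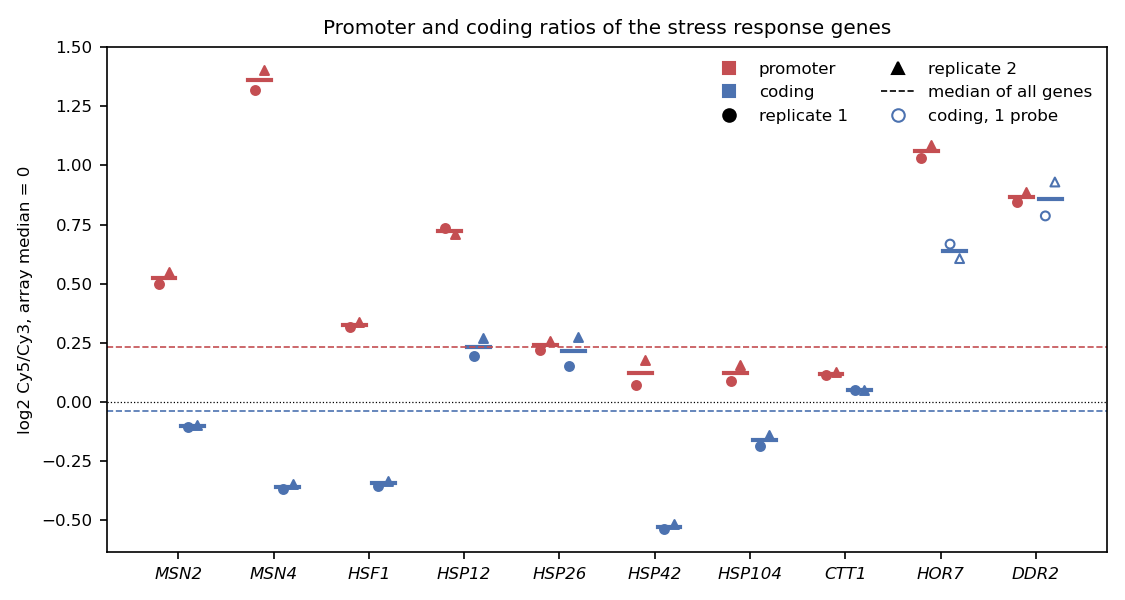
Promoter (red) and coding (blue) ratios of the 10 genes, as log2 Cy5 over Cy3 with the array median at 0. Circles are replicate 1, triangles replicate 2, bars their mean, open symbols a single coding probe, and dashed lines the medians of all genes. MSN4 combines the highest promoter (1.36) with a coding ratio of -0.36, and HSP42 has the lowest coding ratio (-0.53).

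The order of promoters from MSN4 down to HSP26 was the same on both arrays, and each gap between neighbours in it exceeded the gap's own SD. HSP42, HSP104 and CTT1, all at 0.12, changed places between the arrays and did not differ beyond their spread. Among coding regions, HSP12 and HSP26 also changed places between the arrays, and the order from CTT1 down to HSP42 was the same on both. HSF1 and MSN4 were close neighbours there, 0.01 ± 0.002 apart.

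MSN4 had the widest contrast of the 10 genes between promoter and coding region. Its 5 promoter probes, on chromosome 11 from 321299 to 322554 in the array's coordinates, averaged 1.32 in replicate 1 and 1.40 in replicate 2. The mean of 1.36 ± 0.06, or 2.57-fold, exceeded 98.6% of all promoters and 95.7% of the 210 promoters with 5 probes. All coordinates below are likewise the array's, and their genome build was not stated in the labels or headers. Every one of the 5 promoter probes was higher, from 0.83 at the far end to 1.99 at the second probe upstream of the coding region. That second probe gave 1.91 and 2.07 on the arrays, above 98.9% of second upstream probes, and the nearest probe gave 1.30.

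The ratio dropped within the MSN4 coding region. Its first coding probe, saturated in Cy5 on both arrays, was still higher at 0.34, and the next was -0.66, below all but 2.41% of second coding probes. The last of the 5 coding probes had -0.93 and -0.97, for a mean of -0.95. Over the region (322857 to 324523) the arrays gave -0.37 and -0.35, a mean of -0.36 ± 0.01 that lay above 3.20% of coding regions (limma adjusted p = 7.30e-61). Without probes saturated anywhere, which leaves 3 of the 5, the MSN4 coding ratio was -0.66. With 60-nt probes only it was -0.31, above 10.2% of coding regions. With normexp it was -0.19, above 17.4%, and with loess added -0.076, above 15.5%, neither past the test.

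MSN2, the paralog of MSN4 and the more abundant regulator of the pair in growing cells, had a flatter profile. Its 4 promoter probes (chromosome 13, 346601 to 347531) averaged 0.50 and 0.55, a mean of 0.52 ± 0.04. That lay above 78.3% of promoters and 61.6% of the 375 with 4 probes. The ratio was 0.28 next to the coding region, 0.88 at the third probe upstream and 0.47 at the farthest, which was saturated in Cy5 on both arrays. Across its 9 coding probes the arrays gave -0.11 and -0.10, with a mean of -0.10 ± 0.01. That mean held a range from -0.67 at the third probe to 0.22 at the last, and 2 probes were higher, 4 lower and 3 did not pass. MSN4 exceeded MSN2 in the promoter by 0.82 and 0.85 on the arrays (0.84 ± 0.02) and lay under it in the coding region by -0.26 and -0.25 (-0.26 ± 0.01). Both differences were larger than their spread over the 2 arrays. The coding difference depended on the processing: normexp gave -0.19 for MSN4 and -0.18 for MSN2, and normexp with loess -0.076 and -0.059.

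HSF1 resembled MSN4 in its coding region and the typical gene in its promoter. Its 3 promoter probes (chromosome 7, 368073 to 368695) averaged 0.32 and 0.34, a mean of 0.33 ± 0.02 above 61.4% of promoters. The probe farthest upstream, at 0.06, did not pass (limma adjusted p = 0.103). Of 9 coding probes 8 were lower and 0 higher, with the deepest, the third, at -0.86 on both arrays. The coding mean of -0.34 ± 0.02 lay above 3.78% of all coding regions and above 5.26% of the 209 with 9 probes, so it was low also among genes with as many probes. Coding regions with more probes had lower ratios in general, with a median of -0.12 for 9 probes and 0.12 for 2.

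**Figure D2:**
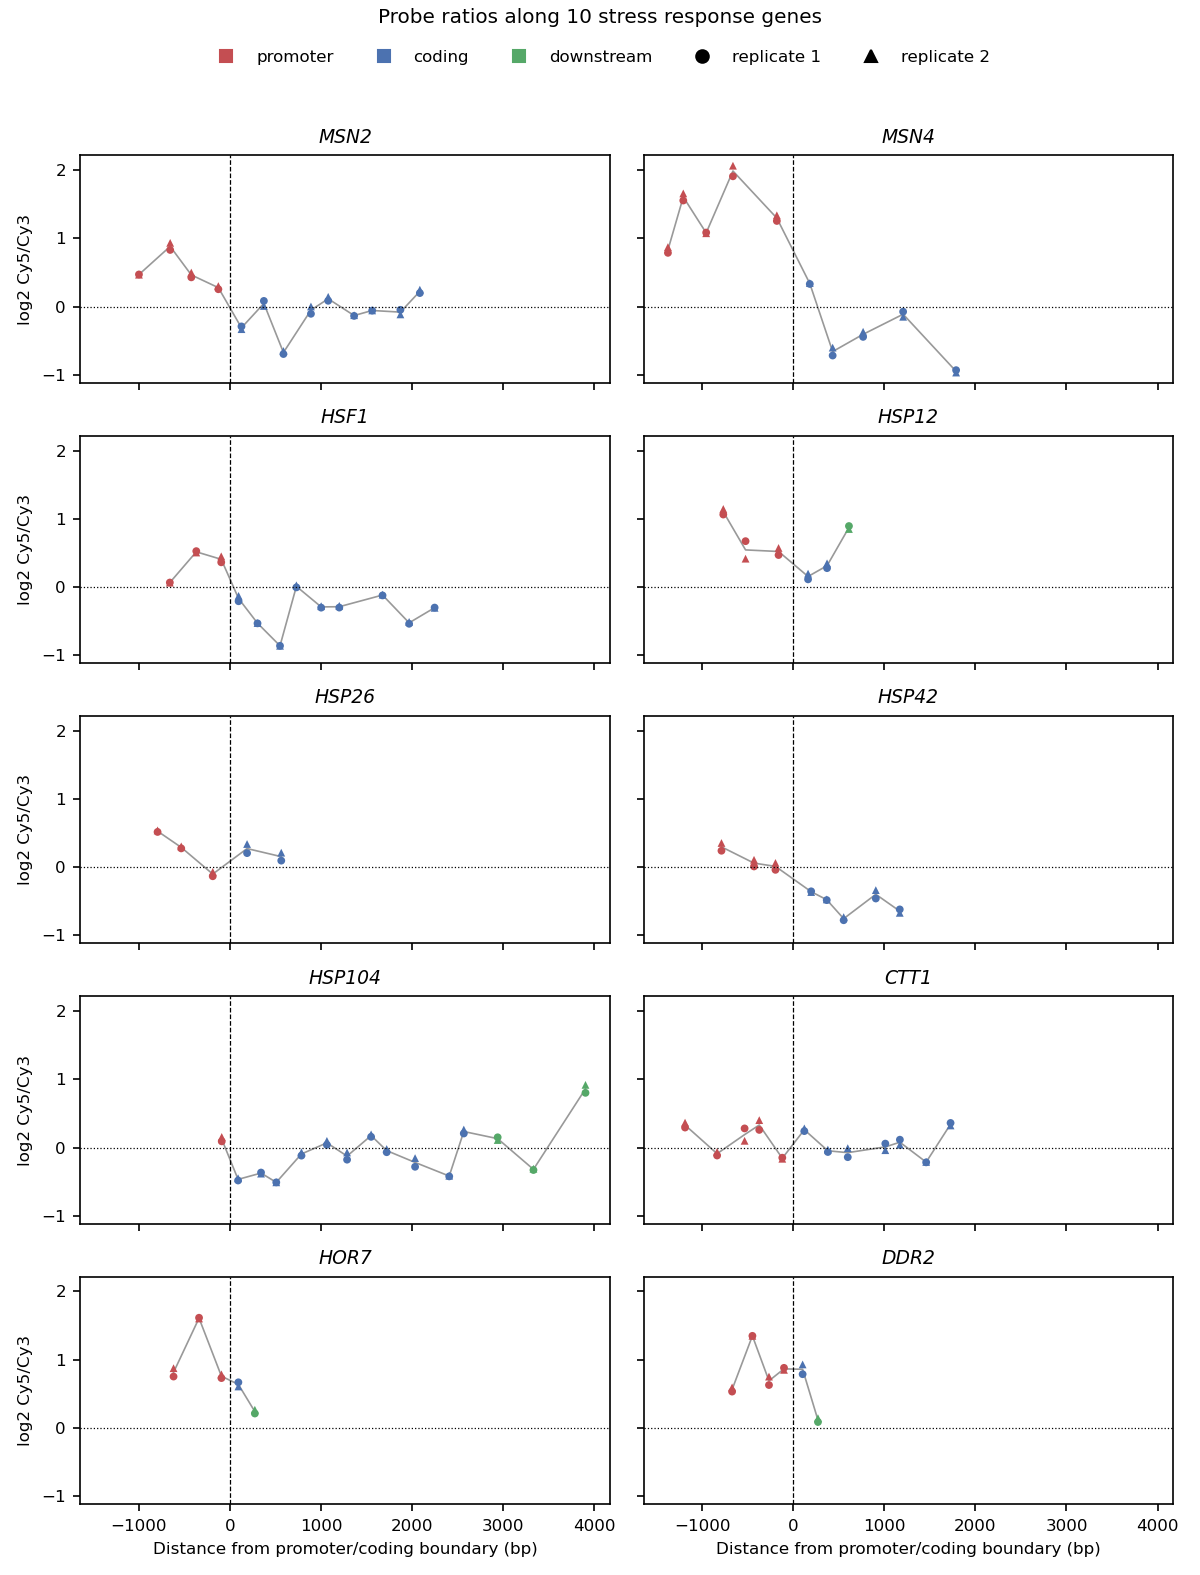
Ratio of each of the 92 probes (log2 Cy5 over Cy3) against its distance in bp, in the direction of transcription, from the midpoint between the last promoter probe and the first coding probe. Circles are replicate 1, triangles replicate 2, and the grey line joins their means. MSN4 falls from 1.99 upstream to -0.95 at its last coding probe, HSP42 is negative at all 5 coding probes, and CTT1 stays between -0.21 and 0.34.

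Among the heat shock proteins, HSP42 had the lowest coding ratio and HSP12 the highest promoter ratio. HSP42 encodes a small heat shock protein that sequesters misfolded proteins and is present in unstressed cells too. Its coding region (chromosome 4, 806613 to 807645) had -0.54 in replicate 1 and -0.51 in replicate 2. The mean of -0.53 ± 0.02 was the 18th lowest of 4996 coding regions (limma adjusted p = 2.25e-126). All 5 of its coding probes were lower, from -0.36 at the first to -0.75 at the third. This rank depended on the processing: with normexp background correction the ratio was -0.03, above 57.7% of coding regions, and with loess added it was -0.10, above 8.35%. The HSP42 promoter lay near the array median, with 0.07 and 0.18 on the arrays (0.12 ± 0.07). Only the probe farthest upstream passed, at 0.30, and the others had 0.06 and 0.01.

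HSP26, another small heat shock protein, is a chaperone that heat itself activates, and its gene is nearly silent in growing cells. Its profile was unlike that of HSP42. The 2 coding probes (chromosome 2, 382153 to 382586) had 0.27 and 0.16, and the coding ratio was 0.15 in replicate 1 and 0.28 in replicate 2. The mean of 0.21 ± 0.09 exceeded that of HSP42 by 0.69 and 0.79 on the arrays. Such a comparison mixes genes of 2 and 5 coding probes, whose medians over all genes were 0.12 and -0.03. In the HSP26 promoter the ratio dropped towards the gene, from 0.53 at the third probe upstream to 0.29 and then to -0.10 next to the coding region. That last probe was lower than the array median on both arrays (-0.13 and -0.07, limma adjusted p = 0.00846), and 17.8% of nearest promoter probes lay below it.

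HSP12 encodes a small protein that binds membranes and is among the genes most strongly induced by Msn2 and Msn4. Its promoter had 0.73 and 0.71 on the arrays, and the mean of 0.72 ± 0.02 exceeded 88.0% of promoters. From far to near the 3 probes (chromosome 6, 106299 to 106965) had 1.10, 0.54 and 0.52. The middle probe differed most between arrays of all 92, with 0.67 and 0.41, and was saturated in Cy5 on 1 of them. Without saturated probes the promoter mean was 0.83. Both coding probes were higher, at 0.15 and 0.31, and their mean of 0.23 ± 0.05 exceeded 64.7% of the 714 genes with 2 coding probes. A downstream probe of HSP12 had 0.87 ± 0.03, higher than both.

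HSP104 encodes the disaggregase that pulls proteins out of aggregates and gives cells tolerance to severe heat. The array holds 1 promoter probe for it, saturated in Cy5 on both arrays, with 0.09 and 0.16. Along its 11 coding probes (chromosome 12, 88677 to 91215) the ratio went up and down, with -0.47, -0.38 and -0.51 at the first 3 probes, 0.17 at the seventh and -0.42 at the tenth. It was 0.23 at the last, above 95.5% of probes at that position. In all, 7 coding probes were lower, 2 were higher and 2 did not pass. The mean of -0.16 ± 0.03 lay close to the median of -0.17 for the 124 genes with 11 coding probes.

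CTT1, HOR7 and DDR2 are all targets of Msn2 and Msn4, and they differed widely here. CTT1, the cytosolic catalase that removes hydrogen peroxide, had probe ratios between -0.21 and 0.34. Saturation touched 2 of its 5 promoter probes and 2 of its 7 coding probes. Without saturated probes the promoter mean was 0.04 and the coding mean 0.07. Its promoter gave 0.11 and 0.13 on the arrays (0.12 ± 0.01) and its coding region 0.05 on both (0.05 ± 0.001, limma adjusted p = 0.0224). This promoter holds 5 probes (chromosome 7, 653270 to 654397), of which 3 were higher and 2 lower. The nearest to the coding region had -0.15 and -0.17, and 14.3% of nearest promoter probes lay below it. Of the 7 CTT1 coding probes 3 were higher, 1 was lower and 3 did not pass, and the last had 0.34. The coding call was lost when arrays were centred on the mode (0.03) or a gene's probes were summarised by their median (0.02).

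HOR7 and DDR2, short paralogs first found as osmotic and DNA damage responsive genes, had high ratios throughout. The 3 promoter probes of HOR7 (chromosome 13, 774069 to 774654) averaged 1.03 and 1.09, a mean of 1.06 ± 0.04 above 95.9% of promoters. The middle one had 1.61 on the first array and 1.60 on the second, above 97.1% of second upstream probes. DDR2 had 4 promoter probes (chromosome 15, 231806 to 232435) with 0.85 and 0.89, a mean of 0.87 ± 0.03 above 92.0% of promoters. Here too the peak stood away from the gene, with 1.35 at the third probe upstream, and the nearest probe had 0.87.

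The single coding probes of this pair were also high. That of HOR7 had 0.67 and 0.61 (0.64 ± 0.04), above 81.7% of the 469 genes with 1 coding probe, whose median was 0.22. The DDR2 probe had 0.79 and 0.93 (0.86 ± 0.10), above 90.6% of them. It is the shortest of the 92 probes, at 45 nt, and was saturated in Cy5 on both arrays. Ratios fell past both genes, to 0.24 ± 0.04 downstream of HOR7 and 0.11 ± 0.04 downstream of DDR2. The HOR7 promoter exceeded the DDR2 promoter by 0.19 and 0.20 on the arrays.

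Promoter and coding region were then compared within each gene, a difference that does not depend on centring. The promoter was higher in 7 of 8 members, against 71.9% of 4575 genes, and lower in 0, against 17.9%, and the members' median difference was 0.56 beside 0.25 for all genes. MSN4 had 1.69 and 1.75 on the arrays, a mean of 1.72 ± 0.05 that ranked 13th of all genes (limma adjusted p = 1.16e-07). HSF1, HSP42 and MSN2 followed with 0.67, 0.65 and 0.63, and the gaps between neighbours in this order did not exceed their SD. In HSP42 the difference came with a promoter near the array median and in MSN2 with a coding region near it. HSP12 had 0.49 ± 0.07 and HSP104 0.28 ± 0.01. The HSP104 difference rests on 1 promoter probe saturated in Cy5 on both arrays, and with normexp it was -0.24, not past the test. CTT1 passed with 0.07 ± 0.01 (limma adjusted p = 0.0187), which was -0.03 without saturated probes and -0.01 with 60-nt probes only, neither past the test. HSP26 did not pass, with 0.07 in replicate 1 and -0.02 in replicate 2 (limma adjusted p = 0.404). With at least 1 coding probe allowed, HOR7 had 0.42 ± 0.08 and passed, and DDR2 had 0.01 ± 0.07 and did not (limma adjusted p = 0.807).

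**Figure D3:**
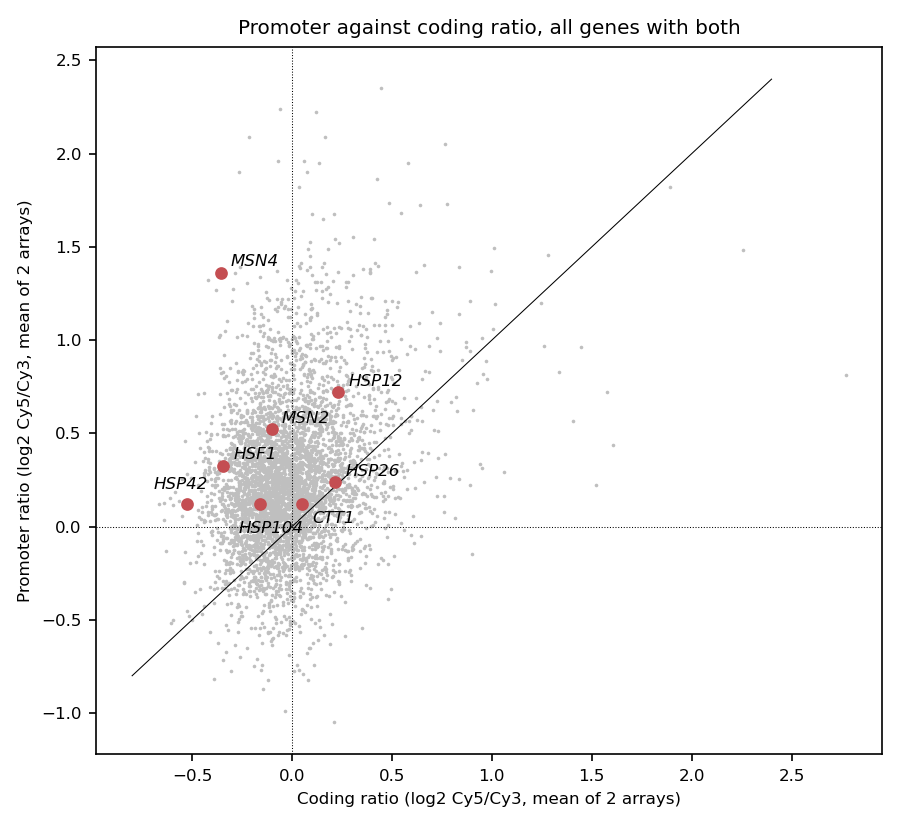
Promoter ratio against coding ratio (log2 Cy5 over Cy3, means of 2 arrays) for 4575 genes measured in both regions (grey) and the 8 stress genes among them (red); the solid line marks equal ratios. MSN4 lies at the upper left edge of the cloud at 1.36 and -0.36, HSP42 at its left edge at 0.12 and -0.53, and HSP26 on the line.

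At the level of single probes, 47 of 92 were higher and 33 lower, against 39.4% of 40890 probes each way. By region, 28 of 34 promoter probes were higher and 3 lower, against 66.3% and 20.1% of 9074 nuclear promoter probes. Of 52 coding probes 14 were higher and 29 lower, against 30.7% and 45.4% of 29599. The 3 lower promoter probes were the nearest probe of HSP26, the nearest of CTT1 and the last but one upstream of CTT1. Of 6 downstream probes 5 were higher and 1 lower, against 39.5% and 43% of 1862, and those of HSP104 ranged from -0.32 to 0.86. Probes of 1 gene share its neighbourhood and are no replicates.

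In 4 of the 10 genes the promoter is divergent, so its probes belong equally to a neighbour. MSN4 shares its 5 probes with YKL063C, whose 2 coding probes had 0.39 ± 0.07, on the opposite side of 0 from the MSN4 coding region. HSF1 shares 3 with MPS2, a spindle pole body gene with a coding ratio of 0.18 ± 0.03. HSP12 shares 3 with MDJ1, which encodes a mitochondrial co-chaperone and had 0.25 ± 0.05. CTT1 shares 5 with PDC6, a minor pyruvate decarboxylase gene with 0.36 ± 0.04. The coding regions of all 4 neighbours were higher (limma), against 34.9% of 4996 on the array. Those of YKL063C, MPS2 and PDC6 lay above their stress gene's by more than either SD, while MDJ1 and HSP12 differed by less. Only PDC6 and CTT1 have equal numbers of coding probes, 7 each. YKL063C has 2 beside 5 for MSN4, MPS2 4 beside 9 for HSF1, and MDJ1 4 beside 2 for HSP12. Coding ratios were lower in general for genes with more probes. Because probes are shared, the high promoters of MSN4 and HSP12 cannot be assigned to 1 gene. Those of HOR7, DDR2 and MSN2 have no such partner.

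The wider stress pathway was read from gene lists chosen with earlier results of these data known, so they describe and do not test. The percentages beside their counts are the shares of all genes that were higher and lower. Coding ratios were lower in general for genes with more probes, and the lists were not matched for probe number. Of 24 regulators, 22 promoters were higher and 1 lower, against 70.8% and 16.3%, with a median of 0.44 near that of the 10 members. HOG1, the osmotic stress kinase, had 2.24 ± 0.06 in a divergent promoter and PBS2, the kinase that activates it, 1.26 ± 0.02. MSN5, the exportin that returns Msn2 and Msn4 to the cytoplasm, had the only lower promoter, -0.09 ± 0.01. In coding regions 6 regulators were higher and 16 lower, against 34.9% and 49.1%, with a median of -0.13 equal to the members' at this rounding. SKN7 and HOT1, transcription factors of the oxidative and osmotic response, were lowest at -0.41 ± 0.002 and -0.37 ± 0.01. TPK3, a catalytic subunit of protein kinase A, and BMH2, a 14-3-3 protein, were highest at 0.31 ± 0.02 and 0.22 ± 0.02.

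Other stress-induced genes had promoters near the array's typical one. Of 33, 24 were higher and 7 lower, against 70.8% and 16.3% of all promoters, with a median of 0.29 beside 0.23. SIP18 and PAI3, both among the lower, had the identical value of -0.0656, as genes that share a divergent promoter do. YGP1, a secreted glycoprotein gene, had 1.28 ± 0.07 and the vacuolar protease gene PRB1 1.27 ± 0.02, whereas SSA3, a stress-induced Hsp70, had -0.32 ± 0.002 at 1 probe and DCS2 -0.26 ± 0.03. Their coding regions, 30 of them measured, had 19 higher and 5 lower, against 34.9% and 49.1%, with a median of 0.09 beside -0.04. The nicotinamidase gene PNC1 had 0.65 ± 0.03 and HSP31 0.38 ± 0.04, and the lowest were RTN2 with -0.30 ± 0.01 and SPI1 with -0.17 ± 0.04.

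Genes of trehalose and glycogen metabolism, stores that stressed yeast builds up, had 12 of 15 promoters higher and 2 lower (median 0.27), against 70.8% and 16.3%. Of their coding regions 2 of 16 were higher and 10 lower (median -0.10), against 34.9% and 49.1%. The promoters of the trehalase gene NTH1, read by 1 divergent probe, and of GAC1, which targets a phosphatase to glycogen synthase, had 1.23 ± 0.03 and 1.12 ± 0.05. UGP1 and GLC3 had the lowest promoters, -0.20 ± 0.01 and -0.08 ± 0.09. The coding regions of ATH1 and GDB1, with 13 probes each, had -0.32 ± 0.02 and -0.28 ± 0.01, and those of GLC3 and GLG2 0.15 ± 0.03 and 0.08 ± 0.06.

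Antioxidant genes had 16 of 20 promoters higher and 2 lower (median 0.29), against 70.8% and 16.3%. Of their coding regions 11 of 15 were higher and 2 lower, against 34.9% and 49.1%, with a median of 0.24, the highest coding median of these lists. That median was not matched for probe number. AHP1 and TRR1, which encode a peroxiredoxin and thioredoxin reductase, had coding ratios of 0.82 ± 0.04 over 3 probes and 0.73 ± 0.02 over 2. The median of all genes with 2 coding probes was 0.12. GLR1 and the peroxisomal catalase gene CTA1 were lower, with -0.30 ± 0.03 and -0.09 ± 0.01, the latter beside 0.05 for the cytosolic catalase gene CTT1. Their highest promoters were those of the peroxiredoxin gene TSA1 (1.09 ± 0.03 at 1 probe) and of SOD1 (0.91 ± 0.07, divergent). The lowest were those of GRX5 (-0.27 ± 0.04) and CCP1 (-0.11 ± 0.04, divergent).

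Further Hsf1 targets, mostly chaperones, had 16 of 21 promoters higher and 1 lower, against 70.8% and 16.3%, with a median of 0.25 beside 0.23. Of their coding regions 10 of 20 were higher and 5 lower (median 0.06), against 34.9% and 49.1%. SSA1, a constitutive Hsp70, had 0.80 ± 0.04 in its divergent promoter and 0.50 ± 0.04 in its coding region, and the Hsp90 co-chaperone gene AHA1 had a coding ratio of 0.84 ± 0.04. MDJ1 had the next highest promoter, which is the one it shares with HSP12. The heat-induced SSA4 had the only lower promoter, -0.09 ± 0.03. CUR1, a protein-sorting factor, had a coding ratio of -0.53 ± 0.03, beside -0.53 for HSP42, and the Hsp40 gene YDJ1 had -0.28 ± 0.01.

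**Figure D4:**
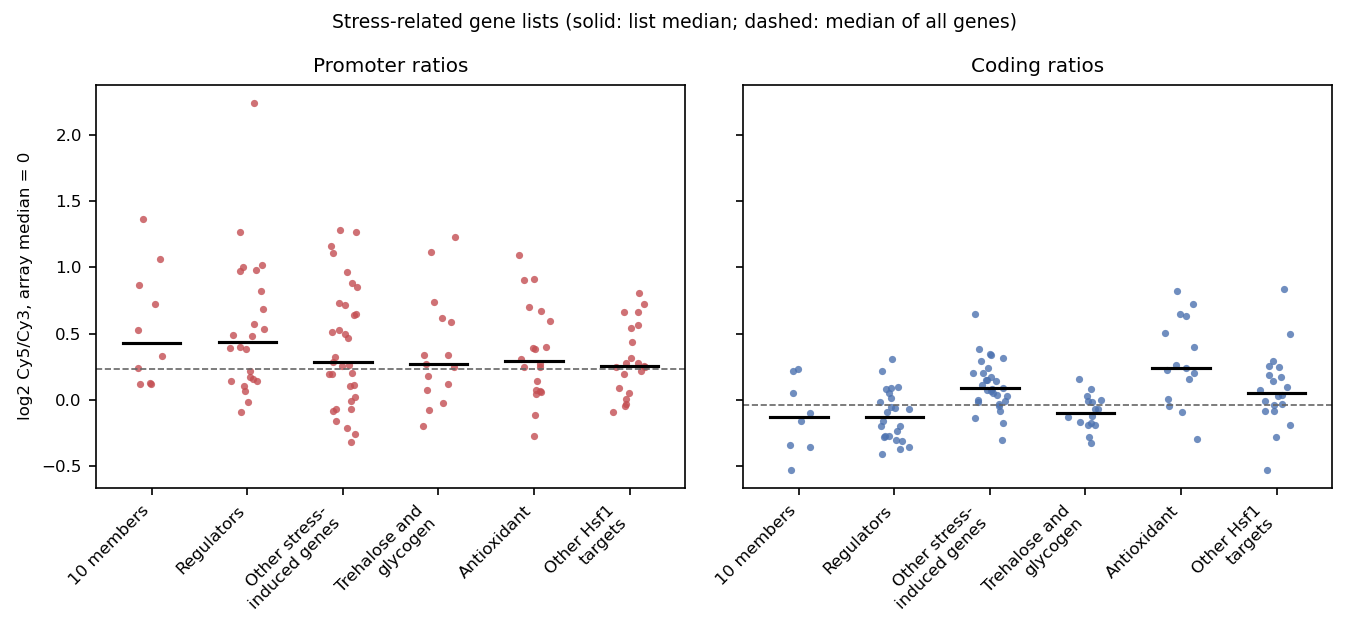
Promoter (left) and coding (right) ratios, log2 Cy5 over Cy3 with the array median at 0, of the 10 members and of 5 lists of stress-related genes. Each point is a gene's mean over 2 arrays, solid bars are list medians and dashed lines the medians of all genes (0.23 and -0.04). Regulators and members share promoter medians of 0.44 and 0.43 and coding medians of -0.13.

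The size of these ratios depended on the processing. The normexp values started from raw mean signals, without the scanner software's detrending and dye normalisation, so background treatment was not compared alone. With normexp the promoters of MSN4, HOR7, DDR2 and HSP12 had 0.48, 0.44, 0.36 and 0.32, and with loess added 0.29, 0.25, 0.16 and 0.25, beside medians over all promoters of 0.14 and 0.09. Normexp with loess thus moved that median by -0.15 in all. These 4 were the highest of the 10 in both settings, though with loess added DDR2 (0.155) lay only just above HSF1 (0.152). DDR2 then exceeded 70.4% of all promoters and MSN4 91.6%. In either setting 0 of 10 promoters passed the test (limma; at an unadjusted p under 0.05, 4 and 0). The loss held for the whole array: 0 of 5173 promoters passed in either, and 705 and 85 were higher at an unadjusted p under 0.05.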

How the data were processed

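H3 ChIP on chip was measured on 2 two-colour tiling arrays, Cy5 labelled Myc-H3 IP and Cy3 labelled WCE, from up to 75 ng of chromatin DNA amplified linearly and 3 µg of amplified RNA labelled, per the labels' protocols. Spot intensity values came from Agilent Feature Extraction 9.1.3.1 on design 014810, background-subtracted, detrended and linearly dye-normalised, per the file headers. Set against them, the log2 values of the table deposited by the authors equalled the processed Cy5 over Cy3 ratio within 5.00e-06, uncentred (medians 0.03 and -0.00).

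Log2 ratios were centred on each array's median. Probes flagged as outliers, or with Cy3 not well above background, were left out, keeping 40890. A gene's coding value averaged its coding probes where it had 2 or more, and its promoter value averaged any promoter probes, a divergent promoter counting for both genes. Values were tested against 0 with limma 3.58.1 in R 4.3.3 across all genes (common between-array SD 0.03 for coding regions and 0.05 for promoters). The prior pulls every gene to that SD, so small ratios pass. The procedure was tried on simulated data, but these were drawn at the fitted SD with most shifts at 0, so they cannot check that SD. Median probe spacing was 257 bp. Of 5688 gene names 5544 matched the R64 gene table by name and 119 by synonym, and strand was taken from locus tags. Members and lists were chosen with earlier results of these data known. The text names all members, their divergent partners and up to 2 highest and 2 lowest of each list past the test. Alternatives were normexp (offset 50, on raw mean signals), loess, other centring, saturated probes, filters, 60-nt probes, the value table, the median of probes, and each array alone.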

Additional observations from a re-analysis of the deposited data

How the results depend on the processing

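Of 252 member values recomputed under 11 alternatives with a test, 192 kept their direction and their side of the threshold, 52 kept the direction and no longer passed, 1 newly passed and 7 reversed. Of 52 untested values from 1 array, 51 kept the sign of the mean, and the HSP26 difference did not (-0.02 without replicate 1). The main limit was normexp on raw mean signals, which altered background correction, detrending and dye normalisation together. With normexp the arrays correlated at r = 0.285 against 0.988. Then 0 promoters (median 0.18), 0 coding regions (-0.048) and 0 probes were higher or lower. The 1 higher difference was MSN4 at 0.68, beside a members' median of 0.15. At an unadjusted p under 0.05 limma called 4 promoters (705 of 5173 on the array) and 2 differences (756 of 4575) higher. Coding regions gave 0 (207 higher and 520 lower), and probes 7 higher and 5 lower (1241 and 4102 of 40890). The reversals there were HSP104 (coding 0.013, promoter -0.22, difference -0.24), CTT1 (coding -0.069) and HSP26 (difference -0.029, not passed in either setting). Normexp with loess gave 0 higher and 0 lower in each comparison, as on the array. Medians were 0.15 (promoters), -0.049 (coding) and 0.14 (differences). Unadjusted, 2 differences were higher, against 693 of 4575. The cause was not tested.

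Other settings moved single values or medians. Without saturated probes the promoter median was 0.56, the difference median 0.63, and the CTT1 difference reversed to -0.026. With 60-nt probes only, 1 of 6 coding regions, 4 of 5 differences and 30 of 60 probes were higher. On the array these were 1268 of 4023, 2438 of 3334 and 11362 of 27940. The members' medians were then -0.22 (coding), 0.64 (promoters) and 0.71 (differences), and the CTT1 difference reversed to -0.0093. Without divergent probes, 6 of 6 promoters (median 0.38) and 3 of 4 differences (0.46) were higher, against 1635 of 2566 and 1504 of 2267 on the array. Admitting genes with 1 coding probe gave 5 of 10 coding regions higher (-0.026), against 2040 of 5465 on the array, and a difference median of 0.46. Medians of probes gave -0.091 for coding regions and 0.46 for differences, ended the calls of the HSP42 promoter (0.06, limma adjusted p = 0.0890) and the CTT1 coding region, and made the HSP26 difference pass (0.08). Each array alone gave medians of 0.41 to 0.44 (promoters), -0.15 to -0.12 (coding) and 0.54 to 0.57 (differences). Centring on the mode ended the calls of the MSN2 and CTT1 coding regions and of the HSP42, HSP104 and CTT1 promoters (limma adjusted p from 0.0685 to 0.650). MSN4, HOR7, DDR2 and HSP12 had the highest promoters in 11 of 12 alternatives that touch promoters, DDR2 only just under normexp with loess. The exception, without divergent probes, removes MSN4 and HSP12. HSP42 had the lowest coding ratio in 9 of 12 that touch coding regions, all but normexp, normexp with loess and that without saturated probes. No centring, the value table (the same data), no filter and mode centring shift all members alike. They could not change either order or a difference, so their part there, also within the 192, is no support. Admitting genes with 1 coding probe or dropping divergent probes left the compared values unchanged. With 1 group, no paired analysis was possible.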
